A study of Mus musculus with 6 samples.

Results

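MicroRNAs miR-103, miR-107, miR-191 and miR-423 are small RNAs that are often chosen as references in quantitative PCR, where the level of a miRNA of interest is given relative to that of a miRNA taken to be constant. Their rows were read from the small RNA profiles of mouse heart muscle (myocardium). Every row whose name begins with 1 of these 4 names was taken, which gave 9 of the 984 mature miRNAs in the files. The 5 arms used as references are mmu-miR-103-3p, mmu-miR-107-3p, mmu-miR-191-5p, mmu-miR-423-5p and mmu-miR-423-3p, written below without the prefix for mouse. The other 4 rows are the opposite arms miR-103-1-5p, miR-103-2-5p, miR-107-5p and miR-191-3p. The libraries were made from heart muscle taken 6 d after death, with 3 libraries, and from heart muscle taken at 0 h, with 3 libraries. The time between death and sampling is called the post-mortem interval, and the labels give it as the only difference between the groups. They name no strain, sex, age or storage condition. Whether the libraries of an interval stem from different mice is not stated either, so the p-values reflect the spread among these libraries alone, and part of it may be technical.

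A miRNA is cut from a hairpin precursor. Each hairpin can give a 5p and a 3p arm, 1 of which is usually loaded into the Argonaute protein while the other is degraded, and the seed, bases 2 to 8 of the loaded arm, selects the mRNAs that are repressed. The miR-103 and miR-107 hairpins lie in introns of genes for pantothenate kinases, the enzymes that start coenzyme A synthesis, and in mouse these miRNAs are known to lower insulin sensitivity. Surveys of human tissues put miR-103 and miR-191 among the most even miRNAs, miR-423 is part of common reference panels, and miR-423-5p has been studied in human blood as a marker of heart failure.

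The mature sequences are shown because they decide which rows can be told apart by their reads and which share targets. They come from RefSeq on the build GRCm38.p6, where all 9 names were matched, and the authors' build is not given in the sources used here. Letters run 5′ to 3′ and the seed is in capitals.
miR-103-3p: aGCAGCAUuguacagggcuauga
miR-107-3p: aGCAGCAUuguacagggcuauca
miR-191-5p: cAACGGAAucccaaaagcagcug
miR-423-5p: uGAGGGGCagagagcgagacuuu
miR-423-3p: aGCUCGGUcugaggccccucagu
miR-16-5p: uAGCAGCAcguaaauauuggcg
miR-425-5p: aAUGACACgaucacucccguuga

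The arms miR-103-3p and miR-107-3p have the same seed and differ at 1 of 23 bases, G22C, counted from 1 at the 5′ end of miR-103-3p. A read that ends before base 22 cannot be assigned to 1 of them, so the split between their rows is uncertain. No other miRNA of the files with a RefSeq sequence has their seed. The letters AGCAGCA, bases 1 to 7 of both, are bases 2 to 8 of miR-16-5p, another common reference, so the seeds of these families are shifted by 1 base. Neither miR-191-5p nor either arm of miR-423 shares its seed with another miRNA of the files that has a RefSeq sequence. The G and C content was 65.2% in miR-423-3p, 56.5% in miR-423-5p, 52.2% in miR-191-5p and 47.8% in both miR-103-3p and miR-107-3p.

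The same miR-103-3p is encoded at chr11:35782447-35782469 on the plus strand, in an intron of Pank3, and at chr2:131288103-131288125 on the plus strand, in an intron of Pank2, so its row sums both loci. The miR-107-3p arm lies at chr19:34820700-34820722 on the minus strand in an intron of Pank1, by the GENCODE release M21. The miR-423 hairpin lies on the minus strand in an intron of Nsrp1, a gene for a splicing regulator, with its 5p arm at chr11:77078122-77078144 and its 3p arm at chr11:77078086-77078108. The miR-191-5p arm lies at chr9:108568325-108568347 on the plus strand, in an exon of the long non-coding RNA 4833445I07Rik. The miR-425 hairpin lies in an exon of the same RNA, 384 bases downstream of the miR-191 hairpin, and the sequence of miR-425-5p, at chr9:108568789-108568811, is shown above as that of a neighbour in the same annotated transcript.

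Depth was lower at 6 d, with 617069 to 1889594 miRNA reads per library, against 4468547 to 7906557 at 0 h. A floor of 3 reads was 1.91 to 3.97 CPM at 6 d and 0.463 to 0.730 CPM at 0 h, and it covers counting error only. CPM means reads per 1000000 after a scaling factor for each library, here called normalised CPM. The factors of 5 libraries are the authors' own, and that of 0 h replicate 1, deposited as raw counts, was derived here. All of them are called the deposited factors below. The heart miRNAs of the marker list (miR-1a-3p, miR-133a-3p, miR-208a-3p, miR-208b-3p and miR-499-5p) were read in every library, and summed to between 113393 and 535915 normalised CPM at 6 d and between 256919 and 491616 at 0 h. Of these 5, 1 was called higher and 2 lower at 6 d, by the limma test described below, which called 16% of all tested miRNAs higher and 21.9% lower. The 2 lower calls, miR-208a-3p and miR-499-5p, were lost with library totals alone (adjusted p of 0.12 and 0.11), and that of miR-208a-3p also without any 1 of 4 single libraries (6 d replicates 2 and 3, 0 h replicates 1 and 3, adjusted p of 0.060 to 0.087). Markers of other cells moved as well. The 5 epithelial miRNAs summed to 1066 to 2055 normalised CPM at 6 d, against 26.2 to 63.0 at 0 h, where miR-429-3p was at 0 in 1 library, and all 5 were called higher. No other marker was at 0 in any library. Of the epithelial miRNAs, miR-429-3p and miR-205-5p had means of only 0.69 and 1.32 normalised CPM at 0 h. They passed the filter on low values only through the 6 d libraries, which favours calls higher at 6 d. The skeletal muscle miRNA miR-206-3p had 685 to 1440 normalised CPM at 6 d and 8.34 to 15.3 at 0 h, and was called higher. The 3 red blood cell miRNAs summed to 57666 to 105053 at 6 d and 22959 to 30098 at 0 h. Only miR-451a among them was called higher (log2 fold change 2.30). The log2 fold changes of miR-144-3p (-0.77) and miR-486a-5p (-0.27) were below 0 and not called. The 4 leukocyte miRNAs summed to 555 to 1026 at 6 d and 417 to 579 at 0 h, and 0 were called with the deposited factors, 2 higher with RLE factors or in edgeR and 1 higher with library totals alone. The liver miRNA miR-122-5p had 2086 to 23460 at 6 d and 668 to 1406 at 0 h, and was called higher. The 2 endothelial miRNAs summed to 25279 to 35076 at 6 d and 56921 to 88648 at 0 h, and 1 of them, miR-126a-3p, was called lower, though not with library totals alone (adjusted p = 0.11). Their part in the results on the reference miRNAs was not tested. In bulk tissue, fewer cells of a type and less RNA per cell cannot be told apart.

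The 5 reference arms differed widely in how steady they were. The changes of miR-103-3p and miR-107-3p were small and not called, while miR-191-5p and miR-423-3p were lower in every 6 d library than in any 0 h library and were called. The change of miR-423-5p was not past the threshold. A call is an adjusted p under 0.05 in limma, fitted over all 470 miRNAs that passed the filter on low values, with Benjamini-Hochberg adjustment. Among these 470, 37.9% were called, 16% higher and 21.9% lower at 6 d, and the 3 libraries of each interval did not overlap for 50.6%, with 6 d above for 19.8% and below for 30.9%. Of the 5 reference arms 0 were called higher and 2 lower, and the groups did not overlap for 2. Their median log2 fold change was -0.77, against -0.33 over all 470. The count of 2 in 5 is near the background share, so nothing is read from the 5 as a set. Fold changes compare levels relative to the other miRNAs of a library, and absolute amounts were not measured.

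**Figure D1:**
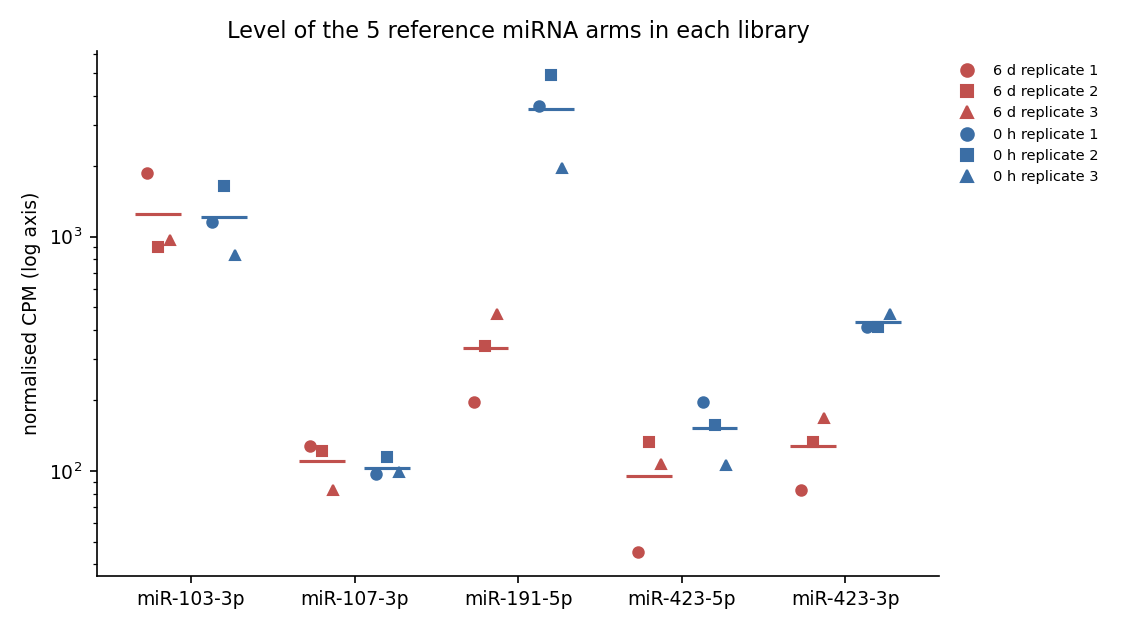
Normalised CPM (log axis) of the 5 reference miRNA arms, with 6 d libraries in red and 0 h libraries in blue. Points are the 3 libraries of each interval and lines their means. The 6 d points of miR-191-5p (197 to 470.1) and miR-423-3p (82.7 to 169) lie below all their 0 h points, and those of the other 3 arms overlap.

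The miR-103-3p arm had 1872, 903 and 966 normalised CPM in the 6 d libraries and 1151, 1641 and 832 in the 0 h libraries. The range at 6 d covered most of the range at 0 h, with 6 d replicate 1 the highest of all. The means were 1247 ± 542 at 6 d and 1208 ± 407 at 0 h (SD, n = 3 each). Its log2 fold change was 0.02 ± 0.39 (SE), with a 95% interval of -0.86 to 0.90 (limma adjusted p = 0.97). Its sign turned without 6 d replicate 1 (-0.32) or 0 h replicate 3 (-0.22).

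The miR-107-3p arm was the steadiest of the 5 in level. It had 127, 122 and 83.0 normalised CPM in the 6 d libraries, from 200, 92 and 92 reads, and 97.1, 115 and 98.8 in the 0 h libraries, from 399, 689 and 640 reads. The highest library was 1.53 times the lowest, against 2.25 times for miR-103-3p. The means were 111 ± 24.1 at 6 d and 104 ± 9.64 at 0 h (SD, n = 3 each), a log2 fold change of 0.08 ± 0.31 (SE, 95% interval -0.63 to 0.78, limma adjusted p = 0.87). Its sign turned without 6 d replicate 1 (-0.037) or 6 d replicate 2 (-0.0055).

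The miR-191-5p arm fell furthest. It had 197, 340.1 and 470.1 normalised CPM in the 6 d libraries, against 3621, 4917 and 1966 in the 0 h libraries. Every 6 d library lay below every 0 h library. The means were 336 ± 137 at 6 d and 3502 ± 1479 at 0 h (SD, n = 3 each). The log2 fold change was -3.37 ± 0.44 (SE, 95% interval -4.35 to -2.38, limma adjusted p = 0.00047). In the order of all 984 miRNAs by level it was at places 102, 83 and 69 in the 6 d libraries, against places 25, 22 and 38 in the 0 h libraries. The reads behind these values numbered 309, 257 and 521 at 6 d and 14876, 29561 and 12735 at 0 h, far above the floor.

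The miR-423-3p arm also fell. It had 82.7, 134 and 169 normalised CPM in the 6 d libraries, against 411, 412 and 469 in the 0 h libraries, which were close to each other. The means were 128 ± 43.2 at 6 d and 431 ± 33.6 at 0 h (SD, n = 3 each). The log2 fold change was -1.80 ± 0.34 (SE, limma adjusted p = 0.0033). With libraries scaled by their totals alone it was -1.34 and the call was lost (limma adjusted p = 0.092).

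The other arm of the same hairpin, miR-423-5p, had 45.2, 134 and 107.4 normalised CPM in the 6 d libraries and 196, 157 and 106 in the 0 h libraries. The ranges overlapped, and 6 d replicate 1 lay well below the other 5 libraries. The means were 95.4 ± 45.4 at 6 d and 153 ± 45.5 at 0 h (SD, n = 3 each), with a log2 fold change of -0.77 ± 0.45 (SE, 95% interval -1.76 to 0.23, limma adjusted p = 0.21).

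The 4 opposite arms had few reads. The arms miR-103-1-5p and miR-103-2-5p, which differ by G1A, had 1 read each at 6 d, in the same library, and 0 reads at 0 h. The miR-107-5p arm had 0 reads at 6 d and 1 read at 0 h. These 3 rows were at or under the floor in both groups and did not pass the filter. The miR-191-3p arm passed it only through the 0 h libraries. It had 1, 0 and 1 reads in the 6 d libraries, which is under the floor, against 13, 15 and 38 in the 0 h libraries. In the pooled reads its share at 6 d was 0.186 of that at 0 h, with a 95% exact interval of 0.0221 to 0.699 that covers counting error only. Its limma call (adjusted p = 0.017) did not hold with library totals alone (adjusted p = 0.091), in DESeq2 (adjusted p = 0.13) and with all libraries thinned to the smallest (limma adjusted p = 0.25). Of all 9 rows, 6 passed the filter.

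Stability was described in 2 ways over the 275 miRNAs with a mean of at least 10 normalised CPM. In the SD of the log2 level over the 6 libraries, whose median was 0.82, miR-107-3p had 0.23 and was the 6th steadiest. The value was 0.48 for miR-103-3p, at place 45, and 0.72 for miR-423-5p, at place 110. It was 1.04 for miR-423-3p, at place 185, and 1.94 for miR-191-5p, at place 256. So 3 of the arms were steadier than the median miRNA and 2 were less steady. With library totals alone, miR-423-5p was at 0.86, just above the median of 0.85, and the order of the 5 did not change. Without 6 d replicate 1 the SD of miR-423-5p was 0.38, below the 0.39 of miR-103-3p in the same libraries, so 1 library set the place of miR-423-5p behind miR-103-3p.

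**Figure D2:**
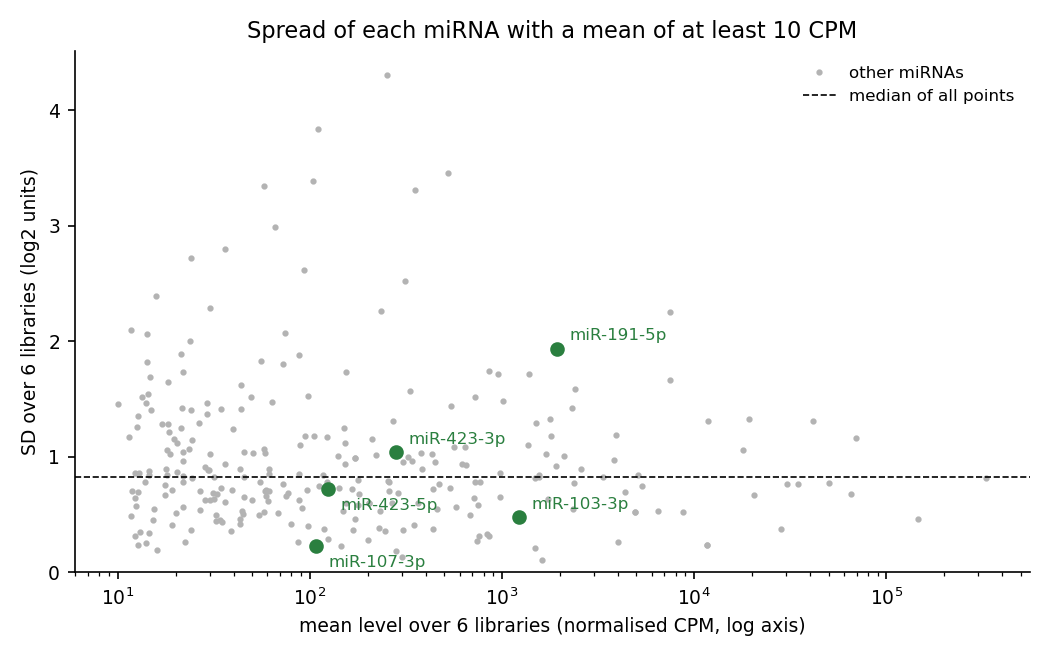
SD of the log2 level over the 6 libraries against the mean level in normalised CPM (log axis), for 275 miRNAs with a mean of at least 10. Green points are the 5 reference arms and the dashed line is the median, 0.82. The miR-107-3p point (0.23) is near the bottom and the miR-191-5p point (1.94) lies above most points.

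The other measure was the mean SD of the log2 ratio to every other of the 275 miRNAs. Library scaling cancels in such a ratio, apart from the 1 added to each value and the choice of the 275 by normalised level. The order of the 5 was the same, with miR-107-3p at 1.021 and place 18, miR-103-3p at 1.10 and place 67, and miR-423-5p at 1.22 and place 122. Then came miR-423-3p at 1.29, place 152, and miR-191-5p at 2.01, place 252, against a median of 1.26. The lowest values belonged to miR-23b-3p (0.98), miR-181d-5p (0.98), miR-145a-3p (0.99), miR-22-3p (0.99) and let-7b-5p (0.99), which were named after their values were seen.

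Within an interval the order was different. Among the 0 h libraries the steadiest reference arm was miR-423-3p, with an SD of 0.11 on the log2 scale, followed by miR-107-3p with 0.13. The SD at 0 h was 0.45 for miR-423-5p, 0.49 for miR-103-3p and 0.67 for miR-191-5p, against a median of 0.33 over the 275 miRNAs. Among the 6 d libraries miR-107-3p had 0.34, miR-423-3p 0.52, miR-103-3p 0.58, miR-191-5p 0.63 and miR-423-5p 0.82, against a median of 0.53. A small spread at 0 h thus did not go with a steady level over both intervals in miR-423-3p.

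The ratio of a pair of reference arms is free of library scaling, because both are read in the same library. Over the 10 pairs of the 5 arms, the 3 libraries of each interval did not overlap for 7. Each of the 7 holds miR-191-5p or miR-423-3p, the arms whose own levels did not overlap. The 10 pairs are made of 5 arms, so the 7 are not separate results. The share over all pairs of miRNAs was not computed. For these 7 the exact two-sided permutation p was 0.1, the smallest that 3 against 3 libraries allow, or 0.143 after adjustment over the 10 pairs. In limma fits in which the libraries were scaled to 1 arm of a pair, the other arm was called in 5 of the 10 pairs. The arm used for scaling was the earlier of the pair in the order listed at the start. These fits called between 20.1% (miR-423-5p) and 79.6% (miR-191-5p) of their miRNAs. The SE and adjustment come from the fit, so the p-values and the count of 5 can depend on that order. The error of the arm used for scaling enters every miRNA of such a fit, so p-values of that fit are linked across miRNAs and can be too small.

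Relative to miR-103-3p, the log2 ratio of miR-191-5p was -3.25, -1.41 and -1.04 in the 6 d libraries, against 1.65, 1.58 and 1.24 in the 0 h libraries. So miR-191-5p had fewer reads than miR-103-3p in each 6 d library and more in each 0 h library. The difference was -3.39 ± 0.60 (SE, limma adjusted p = 6.7e-07), in a fit that called 26.1% of 467 miRNAs. Relative to miR-107-3p it was -3.44 ± 0.50 (SE, limma adjusted p = 0.00054), in a fit that called 35.5% of 488. There were 1.55, 2.79 and 5.66 reads of miR-191-5p for each read of miR-107-3p in the 6 d libraries, against 37.3, 42.9 and 19.9 in the 0 h libraries.

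The ratio of miR-107-3p to miR-103-3p did not separate the intervals. One read of miR-107-3p stood against 14.7, 7.41 and 11.6 reads of miR-103-3p in the 6 d libraries and 11.9, 14.3 and 8.42 in the 0 h libraries. The log2 difference was 0.06 ± 0.59 (SE, limma adjusted p = 0.95), and the exact two-sided permutation p was 0.9. The SD of this log2 ratio over the 6 libraries, 0.40, was the smallest of the 10 pairs, but larger than that of the miR-107-3p level itself.

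The miR-423-3p arm was called relative to miR-103-3p (log2 difference -1.81 ± 0.60, SE, limma adjusted p = 0.014) and to miR-107-3p (-1.87 ± 0.44, SE, limma adjusted p = 0.0086). Against miR-103-3p, leaving out 6 d replicate 1 gave -1.20 and ended the call (adjusted p = 0.14). So did leaving out 0 h replicate 1 (-1.84, with an adjusted p of 0.096) and 0 h replicate 3 (-1.51, with an adjusted p of 0.098). The miR-423-5p arm was not called relative to either (log2 differences of -0.78 ± 0.59 and -0.84 ± 0.50, SE, limma adjusted p of 0.32 and 0.22), and without 6 d replicate 1 its log2 difference to miR-103-3p was 0.0092.

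Relative to miR-191-5p both miR-423 arms were higher at 6 d in every library. The log2 ratio of miR-423-5p to miR-191-5p was -2.12, -1.35 and -2.13 in the 6 d libraries and -4.20, -4.97 and -4.22 in the 0 h libraries, a difference of 2.57 ± 0.76 (SE, limma adjusted p = 0.0015) in a fit that called 79.6% of 432 miRNAs. For miR-423-3p the ratio was -1.25, -1.35 and -1.48 at 6 d and -3.14, -3.58 and -2.07 at 0 h. That difference of 1.56 ± 0.76 (SE) missed the threshold with a limma adjusted p of 0.051, and it was called without 0 h replicate 3 (1.99, adjusted p = 0.015). Between the miR-423 arms the log2 ratio of 3p to 5p averaged 0.51 ± 0.45 at 6 d and 1.54 ± 0.56 at 0 h (SD, n = 3 each). The libraries did not overlap, and the difference of -1.02 ± 0.77 (SE) was not called in the fit scaled to miR-423-5p (limma adjusted p = 0.40), which called 20.1% of 468 miRNAs.

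**Figure D3:**
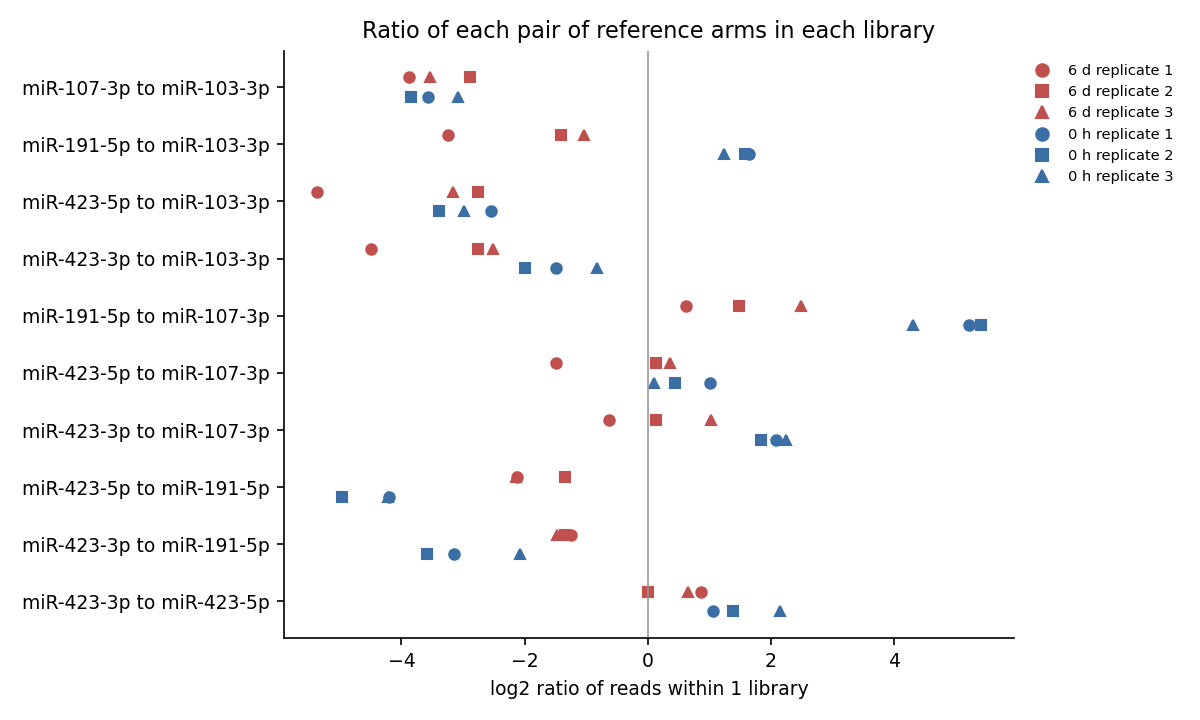
Log2 ratio of reads for each of the 10 pairs of reference arms, 1 point per library, with the 6 d row in red above the 0 h row in blue. The rows do not overlap for 7 pairs, and those of miR-107-3p to miR-103-3p overlap over most of their range.

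The arms of miR-423 come from 1 hairpin, so their ratio compares strands of the same precursor. The hairpin is shown with the 5p arm, then the 3p arm, in capitals.
miR-423 hairpin: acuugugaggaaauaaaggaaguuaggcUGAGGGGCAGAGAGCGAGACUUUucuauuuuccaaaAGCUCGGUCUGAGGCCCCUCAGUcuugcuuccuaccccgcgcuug

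The 5p arm made up 35.3% (95% Wilson interval 29.0 to 42.1), 50.0% (43.2 to 56.8) and 38.9% (33.6 to 44.5) of the miR-423 reads in the 6 d libraries. In the 0 h libraries it made up 32.4% (30.5 to 34.2), 27.5% (26.1 to 29.1) and 18.4% (17.2 to 19.7). The 6 d libraries all lay above the 0 h libraries, though the nearest values of the groups differed by less than the counting error at 6 d. The means were 41.4% ± 7.65 at 6 d and 26.1% ± 7.10 at 0 h (SD, n = 3 each). In the limma fit over all 116 precursors with both arms tested, of which 38.8% were called (19.8% higher and 19% lower at 6 d), the log2 ratio of 5p to 3p was higher by 1.03 ± 0.48 (SE). It was not called (limma adjusted p = 0.12).

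For miR-191 the 5p arm held nearly all reads of the hairpin, with a mean share of 99.83% ± 0.16 at 6 d and 99.85% ± 0.13 at 0 h (SD, n = 3 each). The 3p arm had 2 reads in all at 6 d, too few for its ratio to the 5p arm to be compared between the intervals.

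The neighbour miR-425-5p, from a hairpin in the same annotated transcript as miR-191-5p, moved in the opposite direction. It had 75.7, 120.4 and 70.4 normalised CPM in the 6 d libraries, against 33.8, 43.9 and 20.7 in the 0 h libraries. The groups did not overlap, and the log2 fold change was 1.43 ± 0.39 (SE, limma adjusted p = 0.018). Leaving out 6 d replicate 2 ended the call (1.19, with an adjusted p of 0.066). Leaving out 0 h replicate 1 (1.48, with 0.054) or 0 h replicate 3 (1.14, with 0.066) also did.

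Each read of miR-425-5p stood against 2.60, 2.82 and 6.68 reads of miR-191-5p in the 6 d libraries, and against 107.02, 112 and 95.04 in the 0 h libraries. The 0 h ratios were nearly equal, and the 6 d ratios lay far from them. In log2 units the ratio of miR-425-5p to miR-191-5p was -1.87 ± 0.75 at 6 d and -6.71 ± 0.12 at 0 h (SD, n = 3 each). Its exact two-sided permutation p of 0.1 is the smallest possible. The fit scaled to miR-191-5p gave a difference of 4.70 ± 0.76 (SE, limma adjusted p = 6.1e-09). This is not exactly the difference of the means, because the fit adds 1 to each value. The SE comes from that fit, in which both miR-423 arms also had 0.76. As stated above, p-values of such a fit can be too small, so nothing is read from the size of this one. The miR-425-3p arm, with 6.89 ± 2.53 normalised CPM at 6 d and 7.73 ± 0.72 at 0 h (SD, n = 3 each), was not called (log2 fold change -0.19, limma adjusted p = 0.72).

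**Figure D4:**
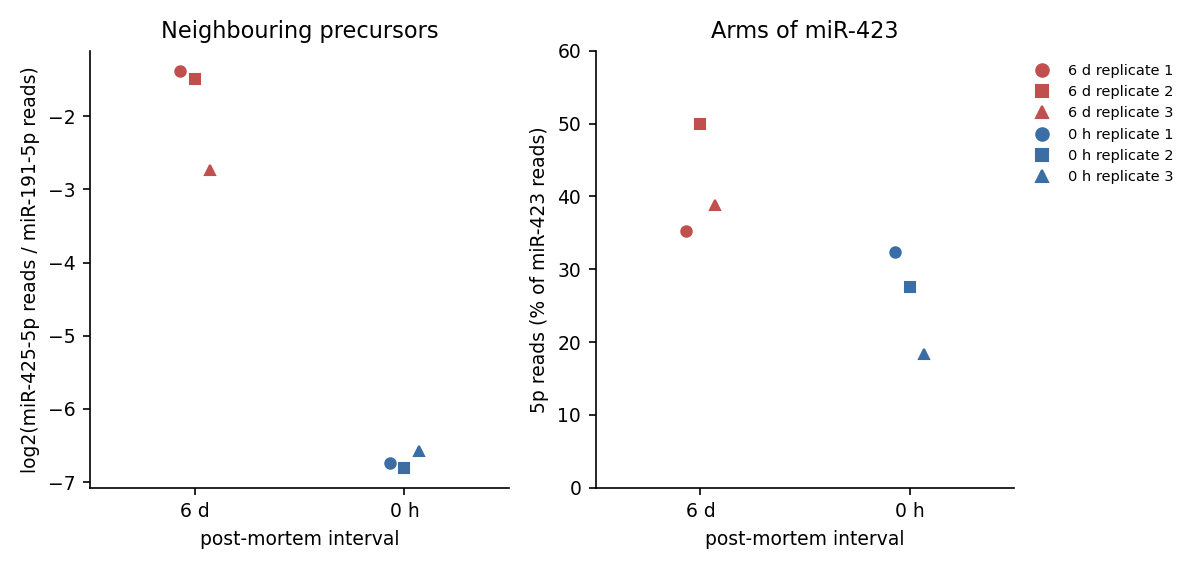
Left, log2 ratio of miR-425-5p to miR-191-5p reads, and right, 5p reads as a percent of all miR-423 reads, 1 point per library. The 6 d ratios lie between -2.74 and -1.38 and the 0 h ratios between -6.81 and -6.57. The 5p percent is 35.3 to 50.0 at 6 d and 18.4 to 32.4 at 0 h.

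In quantitative PCR the choice of reference sets the scale, and the same was done here by scaling all libraries to equal reads of 1 arm. With miR-107-3p as the reference, 173 of 488 miRNAs were called (35.5%), 14.3% higher and 21.1% lower at 6 d, and 166 of these were also called in the same direction with the deposited factors. With miR-103-3p, 122 of 467 were called (26.1%), 53 higher (11.3%) and 69 lower (14.8%), of which 119 were shared in the same direction. The deposited factors gave 178 of 470 (37.9%), 16% higher and 21.9% lower. The count fell to 57 without 0 h replicate 1 and to 81 without 0 h replicate 3 when scaled to miR-103-3p, to 96 and 105 when scaled to miR-107-3p, and to 114 without 0 h replicate 1 with the deposited factors.

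With the other references most calls were on 1 side. With miR-191-5p, 344 of 432 were called (79.6%), 342 higher (79.2%) and 2 lower (0.463%) at 6 d, and 35 of them had the opposite direction to their call with the deposited factors. With miR-423-3p, 208 of 455 were called (45.7%), 194 higher (42.6%) and 14 lower (3.08%). With miR-423-5p, 94 of 468 were called (20.1%), 74 higher (15.8%) and 20 lower (4.27%), and the count was 58 without 6 d replicate 3, 40 without 0 h replicate 1, 39 without 0 h replicate 2 and 53 with a replicate block. With the geometric mean of all 5 arms, 158 of 475 were called (33.3%), 134 higher (28.2%) and 24 lower (5.05%).

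**Figure D5:**
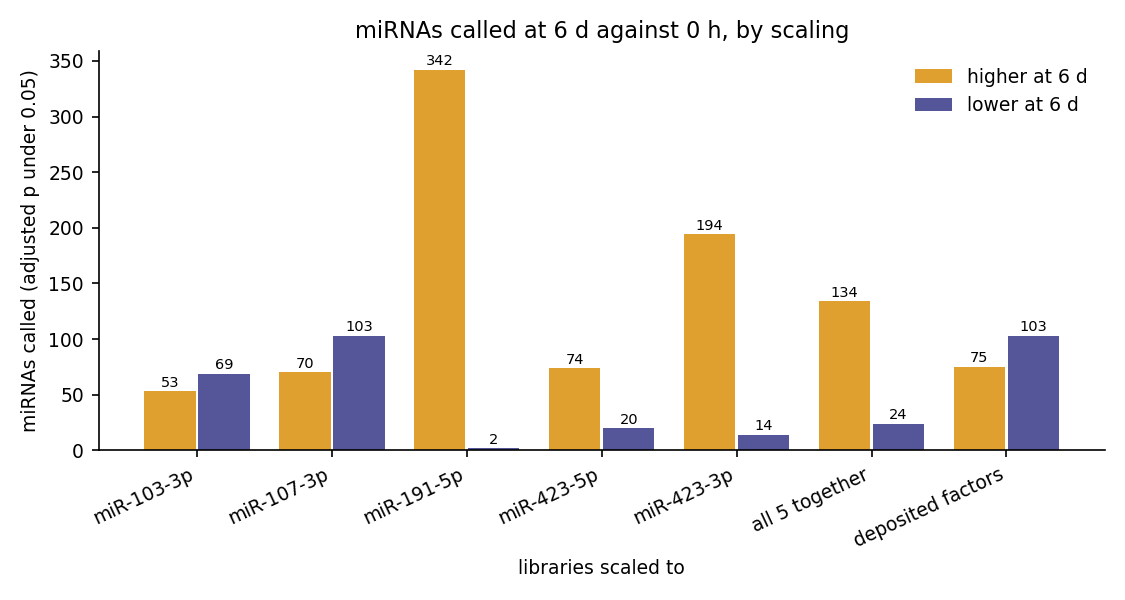
Number of miRNAs called at 6 d against 0 h (limma adjusted p under 0.05) when all libraries are scaled to 1 reference arm, to the 5 arms together, or with the deposited factors. Calls higher at 6 d are in orange and lower in blue. Scaling to miR-191-5p gives 342 higher and 2 lower, while miR-107-3p gives 14.3% of 488 higher and 21.1% lower.

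Scaling to an arm moves every miRNA by about the change of that arm, so the turned signs under miR-191-5p follow from its own fall and are no further evidence of it. As examples of the size of this shift, the log2 fold change of miR-126a-3p, the main endothelial miRNA, was -1.40 scaled to miR-107-3p (limma adjusted p = 0.0086) and 2.04 scaled to miR-191-5p (limma adjusted p = 0.014). For miR-1a-3p, the main miRNA of heart muscle, it was 3.04 scaled to miR-191-5p (limma adjusted p = 0.00053) and -0.41, not called, scaled to miR-107-3p (limma adjusted p = 0.47). The red blood cell miRNA miR-451a was called higher at 6 d under all 6 of these scalings, with log2 fold changes between 2.22 (miR-107-3p) and 5.67 (miR-191-5p).

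For each reference arm, the 3 most similar miRNAs were those with the smallest SD of the log2 ratio to it over the 6 libraries, among the 275. The SD spans both intervals, so a miRNA picked in this way changes about as its arm does. The fold changes and calls of these miRNAs thus largely follow from the choice and are no separate evidence. Those of miR-107-3p were miR-27b-5p (SD 0.17), miR-195a-5p (0.17) and let-7f-2-3p (0.19), and those of miR-103-3p were miR-195a-5p (0.29), miR-152-3p (0.30) and miR-144-5p (0.32). None of these 5 miRNAs was called. Those of miR-423-3p were closer still at first place, with miR-503-3p (0.15), followed by miR-484 (0.28) and miR-486a-3p (0.30), which had log2 fold changes of -1.82, -1.39 and -1.79 (limma adjusted p of 0.0031, 0.013 and 0.0041). All 3 of these calls were lost with library totals alone (adjusted p of 0.074, 0.25 and 0.074).

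Those of miR-423-5p were let-7c-5p (0.33), let-7d-5p (0.43) and miR-30b-3p (0.44), of which the last 2 were called lower (log2 fold changes of -1.25 and -1.27, limma adjusted p of 0.026 and 0.023). Both calls were lost with library totals alone (adjusted p of 0.31 and 0.27), RLE factors (0.067 and 0.054) and edgeR (0.086 and 0.068), and without 6 d replicate 1 or any 1 of the 3 libraries at 0 h (adjusted p of 0.050 to 0.088). The nearest to miR-191-5p were further away, with miR-541-5p (0.59), miR-1964-3p (0.60) and miR-30e-3p (0.63), and all 3 fell at 6 d, by log2 fold changes of -3.34, -3.66 and -3.12 (limma adjusted p of 0.0003, 0.0003 and 8.8e-05). These SDs rest on 6 libraries that the miRNAs share, and the median SD to all others was 1.85 for miR-191-5p and 0.85 for miR-107-3p.

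Other miRNAs in use as references moved in both directions. Of a list of 14, all tested, 6 were higher at 6 d, 5 lower and 3 not called, against 16% higher and 21.9% lower among all 470. The 470 include many low miRNAs, while all 14 had a mean of at least 10 normalised CPM. In a fit over the 275 miRNAs at that level, 142 were called, 56 higher and 86 lower, so the share of 470 is a low background for this list. The median log2 fold change was -0.07 over the list and -0.33 over all 470. Those that rose were miR-16-5p (1.93), miR-93-5p (1.86), miR-425-5p, miR-25-3p (1.32), miR-92a-3p (1.20) and miR-186-5p (1.04). Those that fell were let-7a-5p (-1.54), miR-320-3p (-1.47), miR-484, miR-24-3p (-1.38) and miR-26a-5p (-1.25), and with library totals alone all 5 of these calls were lost (adjusted p of 0.15 to 0.25). The 3 not called were let-7i-5p, with 28040 ± 9705 normalised CPM at 6 d and 28406 ± 5529 at 0 h (SD, n = 3 each), miR-361-5p and miR-151-5p. The SD over the 6 libraries was 0.37 for let-7i-5p, between those of miR-107-3p and miR-103-3p. The calls of miR-16-5p, miR-186-5p, miR-320-3p, miR-26a-5p and miR-92a-3p were each lost when 1 or more single libraries were left out (adjusted p of 0.050 to 0.097).

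The miR-15 and miR-16 family was taken as 7 tested miRNAs. The seed of miR-16-5p, shifted by 1 base from that of miR-103-3p, is shared by 5 of the others but not by miR-503-5p. Of the 7, miR-15b-5p (log2 fold change 1.44) and miR-16-5p rose, 0 fell and 5 were not called. Among all 470, 37.9% were called and 16% called higher, so nothing is read from this count. The median log2 fold change was 0.60 over the family and -0.33 over all 470. There were 2.03, 3.42 and 1.503 reads of miR-16-5p for each read of miR-103-3p in the 6 d libraries, against 0.737, 0.734 and 0.363 in the 0 h libraries. The ratio of these common references was higher in every 6 d library than in any 0 h library (exact two-sided permutation p = 0.1, the smallest possible). In the fit scaled to miR-103-3p the difference was 1.91 ± 0.60 (SE, limma adjusted p = 0.0094).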

How the data were processed

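Trizol RNA was turned into libraries with NEBNext small RNA reagents, per the labels' protocols. The tools were STAR 2.5.3a, cutadapt 2.8, Trimmomatic 0.39 and FastQC, per the submitters' processing notes. For the build, the counter and the miRNA annotation, the sources used here give no name. The authors deposited raw read counts for 0 h replicate 1 and log2(x + 1) values with 3 decimals for the other 5 libraries. Of 3110 deposited log2 values above 0, 2692 could be tested. In all 2692, x was a whole multiple of 1 step per library, within 0.0005 on the log2 scale. So whole reads were recovered up to 693 to 714 reads, depending on the library. Larger read numbers of these 5 libraries are estimates, uncertain by about 0.0347% from the rounding. The counts of 0 h replicate 1 were scaled so that the 6 library factors multiply to 1, a choice made here that the authors do not state. Because the units are mixed, a test for normalised values was used.

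Values were tested with limma 3.58.1 (trended prior, robust, log2(normalised CPM + 1)) where at least 3 libraries had a value of at least 1. Fold changes on this scale understate those of low miRNAs. The untested miRNAs held 0.0114% of the reads. Arm ratios used reads plus 1. On simulated data, 87.3% of 4-fold changes were recovered for 6 d against 0 h over 483 miRNAs, with 3.45% of calls false. For scaling to 1 reference (490 miRNAs) these were 71.5% and 2.33%, and for arm ratios (116 precursors) 74.0% and 2.43%. The simulated noise had the same dispersion for all miRNAs and for both intervals, and was independent between miRNAs. In the data the median SD of the log2 level over the 275 miRNAs was 0.53 at 6 d and 0.33 at 0 h. The simulated reference was the most abundant miRNA without a change. So these shares do not give the error of the fits to the data, either with the deposited factors, for the arm ratios or scaled to the 5 arms. Alternatives included edgeR 4.0.16 and DESeq2 1.42.0 on the recovered reads, which called 151 of 363 and 172 of 488 miRNAs. Replicates differed far beyond sampling noise (chi-square of at least 222 per degree of freedom). Named miRNAs were all matching rows, the 3 nearest to each of the 5 arms, and lists of reference, neighbouring, seed-related and marker miRNAs. The members and lists were chosen with earlier results of these data known. The labels name no molecular identifiers.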

Additional observations from a re-analysis of the deposited data

How the results depend on the processing

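Over the other scalings, filters, pseudocount, tests, thinning and replicate block, the log2 fold change was between -3.37 and -2.91 for miR-191-5p, -1.80 and -1.34 for miR-423-3p, -0.77 and -0.31 for miR-423-5p, 0.02 and 0.48 for miR-103-3p, and 0.08 and 0.53 for miR-107-3p. The one changed call among them was that of miR-423-3p with library totals alone (-1.34, adjusted p = 0.092). The median of all tested miRNAs was -0.33 with the deposited factors, -0.17 with RLE factors and 0.02 with library totals. Library totals gave 83 miRNAs higher and 40 lower, edgeR 80 and 71, and DESeq2 97 and 75. Leaving out 1 library gave -0.32 to 0.27 for miR-103-3p, with a sign change without 6 d replicate 1 (-0.32) or 0 h replicate 3 (-0.22), and -0.037 to 0.27 for miR-107-3p, with a sign change without 6 d replicate 1 (-0.037) or 6 d replicate 2 (-0.0055). It gave -3.74 to -3.03 for miR-191-5p, -2.02 to -1.51 for miR-423-3p and -1.08 to -0.30 for miR-423-5p, with the calls unchanged. Without 1 library the calls numbered 114 to 179 in all, 57 to 108 scaled to miR-103-3p, 96 to 190 to miR-107-3p, 271 to 354 to miR-191-5p, 39 to 106 to miR-423-5p, 143 to 198 to miR-423-3p and 126 to 156 to all 5 arms. Arm ratio calls were 16 to 45 of 116 precursors, against 45 with all libraries, and 27 with both arms at a mean of at least 10 CPM, where fewer precursors were tested. The arm ratio of miR-423 was 0.73 to 1.27. That of miR-191, which rests on 2 reads of the 3p arm at 6 d and from which nothing is read, was -1.98 with 1 read added to each arm, -1.41 with 0.5 added, and -2.68 to -1.43 without 1 library. Of the pairs 4 to 5 were called. With miR-103-3p and miR-107-3p pooled, 3 of the 6 pairs were called. The log2 ratio of miR-107-3p to miR-103-3p was -0.21 to 0.28, below 0 without 6 d replicate 2 (-0.21) or 0 h replicate 2 (-0.11). That of miR-423-5p to miR-103-3p was -1.28 to 0.0092. For these changes the cause was not tested. Libraries with the same number had deviations from their group means that correlated at 0.07, 0.06 and 0.27. As 2 of these are under 0.1, the numbers were not used as pairs. With the replicate block 195 miRNAs were called, and 53 when scaled to miR-423-5p, against 94 without it. Depth limits the opposite arms, with a floor of 3 reads at up to 3.97 CPM.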
